A study of Mus musculus with 8 samples.

Results

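The genes described here encode the nuclear subunits of the mitochondrial respiratory chain and of ATP synthase. They are taken by name: symbols that begin with Nduf followed by a, b, c, s or v and a digit, with Cox4 through Cox8, with Uqcr or with Atp5, together with Sdha, Sdhb, Sdhc and Sdhd. Of the 22523 non-control probe sets on the arrays, 80 mapped through a RefSeq transcript to such a gene. Probe sets with identical values on all 8 arrays were counted once, which left 74 members, each a different gene. Complex I holds 36 of them, complex II 4, complex III 7, complex IV 16 and complex V 11. Ndufs1 was read by 4 probe sets with the same values, and Ndufv3, Cox7a2l and Cox6b2 by 2 each. A further 13 protein-coding genes fit the names (Atp5c1, Atp5g1, Atp5g2, Atp5h, Atp5l, Atp5md, Cox7b, Cox7c, Ndufb1, Ndufb4, Ndufb4b, Ndufb4c and Uqcrb) but matched no probe set, and were not analysed here.

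Complex I takes electrons from NADH and complex II takes them from succinate, and both pass them to ubiquinone. Complex III hands them on to cytochrome c and complex IV to oxygen, and the proton gradient built along the way drives complex V, the ATP synthase. Most subunits are encoded in the nucleus, a few by mitochondrial DNA, and in fibroblasts as elsewhere the complexes need assembly factors, imported proteins and mitochondrial translation to form.

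Expression was measured on 8 Affymetrix mouse arrays from 3 cloned lines of p53-null murine fetal fibroblasts, a system made to find genes tied to asymmetric self-renewal among the many that respond to p53. Ind-8 (3 arrays, ASYM in the figures) carries a wild-type mouse p53 cDNA under a modified metallothionein promoter, so that zinc induces p53 and the cells self-renew asymmetrically. Con-3 (3 arrays, SYM in the figures) lacks the p53 cDNA and self-renews symmetrically. tI-3 (2 arrays, p53SYM in the figures) was derived from Ind-8, keeps its inducible p53, expresses an IMPDH II cDNA constitutively and self-renews symmetrically. All cultures had spent 48 hours in 65 µM ZnCl2 with 5 µg/ml puromycin, and tI-3 also had G418. Replicates were separate cultures of a line. Since each state is 1 cloned line, line and state cannot be told apart, and in bulk RNA fewer expressing cells and less RNA per cell cannot be told apart either.

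Values are RMA log2 levels, which can be compared between arrays for 1 gene but not between genes. Comparison A is Ind-8 minus Con-3, B is Ind-8 minus tI-3 and C is tI-3 minus Con-3, each a difference of mean log2 levels given with its standard error (SE). Each line enters 2 of the 3 comparisons, so they share arrays and are not independent of each other. A gene is called when its limma p-value, adjusted by Benjamini-Hochberg over all 22523 probe sets, is under 0.05. Precision is bounded by having only 2 or 3 arrays for each line.

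The p53 targets followed the labels. Cdkn1a, the p21 inhibitor of the cell cycle, read 9.70, 9.70 and 9.59 in Ind-8, 5.73, 5.81 and 6.03 in Con-3, and 7.55 and 7.33 in tI-3. The 3 lines did not overlap, with tI-3 between the others, and the differences were 3.81 ± 0.11 in A, 2.22 ± 0.12 in B and 1.59 ± 0.12 in C (SE, adjusted p = 1.9e-08, 3.6e-06 and 1.9e-05). Ccng1, which encodes cyclin G1, had the same order (A 2.91, B 1.24, C 1.67), as did Mdm2, the ubiquitin ligase of p53 (A 2.00, B 1.28, C 0.72). All of these were called. The Trp53 transcript itself was low, at 5.79 in Ind-8, 5.25 in Con-3 and 5.64 in tI-3 as means, and was called in A (0.53, adjusted p = 0.00192) and in C (0.39, adjusted p = 0.0144), the latter not without tI-3 replicate 2 (adjusted p = 0.109) or with the level of the hybridization controls in the model (0.0616; 0.00655 to 0.109 over the alternatives tried).

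The transgene of tI-3 was not visible as a higher Impdh2 level. Impdh2, the enzyme of guanine nucleotide synthesis, read 12.16, 12.19 and 12.22 in Ind-8, 12.51, 12.56 and 12.53 in Con-3 and 12.34 and 12.38 in tI-3. It fell by 0.34 in A (adjusted p = 0.0108), while tI-3 lay between the other lines and was called against neither (B -0.17, adjusted p = 0.163; C -0.17, adjusted p = 0.182). The metallothioneins Mt1 and Mt2, which zinc induces, averaged between 13.07 and 13.88 in all 3 lines. Mt2 was called in C (-0.39, adjusted p = 0.0248), though not without Con-3 replicate 2 (0.0867) or tI-3 replicate 2 (0.217), after renewed quantile normalization (0.253), with chromosomes centred (0.204) or with the hybridization controls (0.129), and its adjusted p ran from 0.0082 to 0.253 over the alternatives.

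The fibroblast label was checked against 12 markers. Vim, S100a4, Fn1, Col1a2 and Col1a1 averaged 10.85 or more in every line, but Thy1 (3.88 to 4.56) and Lum (3.75 to 3.95) lay near or under 4.3, the 25th percentile of all probe set means, and Dcn was at 5.59 to 5.83. Of the 12, 2 were called higher and 2 lower in A, 5 and 1 in B, and 3 and 4 in C, led by Col3a1 (B 2.42, C -2.68) and Postn (A -1.72). None of 6 epithelial markers was called, and they averaged 3.52 to 5.37. Of 4 endothelial markers only Kdr was called (A -0.32, B -0.76, C 0.44). Blood markers, 4 found of 5, averaged 3.50 to 5.77 and gave 0 higher and 0 lower in A, 0 and 3 in B, and 1 and 0 in C. Among 4 muscle markers Acta2, an actin that fibroblasts also make, was called (B 0.86, C -0.89), and among 4 neural markers Nes (A -0.45) and Tubb3 (B 0.39, C -0.52). The adipocyte marker Fabp4 averaged 7.87 in Ind-8, 5.54 in Con-3 and 9.25 in tI-3 and was called in each comparison, while Adipoq stayed at 3.24 to 3.55. The part that these marker differences have in the values of the respiratory chain was not tested.

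Some arrays stood apart. Con-3 replicate 3 had an 18S rRNA control level of 11.38, against 6.59 to 7.67 on the other 7 arrays. The hybridization controls averaged 9.04, 8.98 and 9.03 in Ind-8, 9.05, 9.16 and 9.62 in Con-3, and 9.43 and 9.71 in tI-3, so that they were highest on Con-3 replicate 3 and both tI-3 arrays. The lower quartile was highest on the same 3 arrays, at 4.19, 4.20 and 4.25 in Ind-8, 4.23, 4.27 and 4.38 in Con-3, and 4.39 and 4.43 in tI-3. The upper quartile was lowest on them, at 8.33, 8.31 and 8.29, then 8.30, 8.29 and 8.26, then 8.17 and 8.12. Dim genes therefore read high and bright genes low on the tI-3 arrays, and results that move with this are given with it. The hybridization controls of Ind-8 and tI-3 did not overlap, so with their level as a covariate B loses precision. A call of B can then end although its difference is unchanged.

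Most of the 74 members differed little between the lines. In A, 15 members were called higher in Ind-8 and 4 lower, beside 10.9% and 11.0% of all probe sets. In B, 10 were called higher in Ind-8 and 10 lower, beside 15.6% and 15.5%. In C, 13 were called higher in tI-3 and 6 lower, beside 10.2% and 15.1%. By the moderated F test over the 3 lines, 30 of 74 members varied (40.5%), beside 41.1% of all probe sets. The median member difference was 0.07 in A, 0.01 in B and 0.12 in C, against -0.06, -0.06 and 0.04 over all probe sets, and the median size regardless of sign was 0.15, 0.19 and 0.19, against 0.16, 0.24 and 0.21. A difference beyond 0.5 in either direction was seen for 3 members in A, 8 in B and 7 in C.

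As most members are bright, they were also set beside the 1757 probe sets with a mean above 10. Among the 63 members that bright, 14 were called higher and 4 lower in A, beside 16.4% and 19.7% of the bright probe sets. In B the counts were 10 and 5, beside 25.4% and 8.59%, and in C 13 and 6, beside 11.3% and 29.3%. By the F test 25 of the 63 varied (39.7%), beside 57.8% of the bright probe sets. In B bright probe sets had a median difference of 0.12 and in C of -0.14, whereas the 63 members had 0.06 and 0.09. The members were thus called lower in C in 9.52% of cases and higher in 20.6%, an order opposite to that of bright probe sets at large. No test of this contrast was made.

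The test named in the methods, the rank product with a percentage of false positives (pfp) under 0.05, called 0 members in each comparison, beside 3.65%, 2.02% and 2.31% of all probe sets in A, B and C. At an unadjusted p under 0.05 the rank product gave 10 members higher and 4 lower in A, 2 and 6 in B, and 8 and 1 in C, where limma called 19, 20 and 19 members in all. The members nearest to its threshold were Ndufa7 in A (pfp 0.206), Ndufa2 in B (0.0835) and Ndufs5 in C (0.358).

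The counts depend on scaling and on single arrays. When the arrays were quantile-normalized again, the higher and lower counts became 16 and 4 in A, 5 and 15 in B, and 21 and 2 in C. With each chromosome centred on its median, an alternative chosen after seeing the data, they became 13 and 1 in A, 5 and 9 in B, and 12 and 2 in C. With the hybridization control covariate they became 7 and 4, 1 and 2, and 7 and 4. The B median moved from 0.01 to -0.10 and -0.02 under those scalings and to -0.01 when arrays were centred on their medians, so that B as a whole has no settled direction. In A, 7 members were called higher without Ind-8 replicate 2 or without Con-3 replicate 1, and 8 without Con-3 replicate 3. In B, 2 were called higher and 3 lower without tI-3 replicate 2, and 5 lower without Ind-8 replicate 1, Ind-8 replicate 2 or tI-3 replicate 1. In C, 2 were called higher without tI-3 replicate 1 and 7 without tI-3 replicate 2, and 2 were called lower without Con-3 replicate 2 and 1 without tI-3 replicate 2. The F count fell from 30 to 18 without tI-3 replicate 2. With tI-3 on only 2 arrays, B and C rest on each of them.

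**Figure D1:**
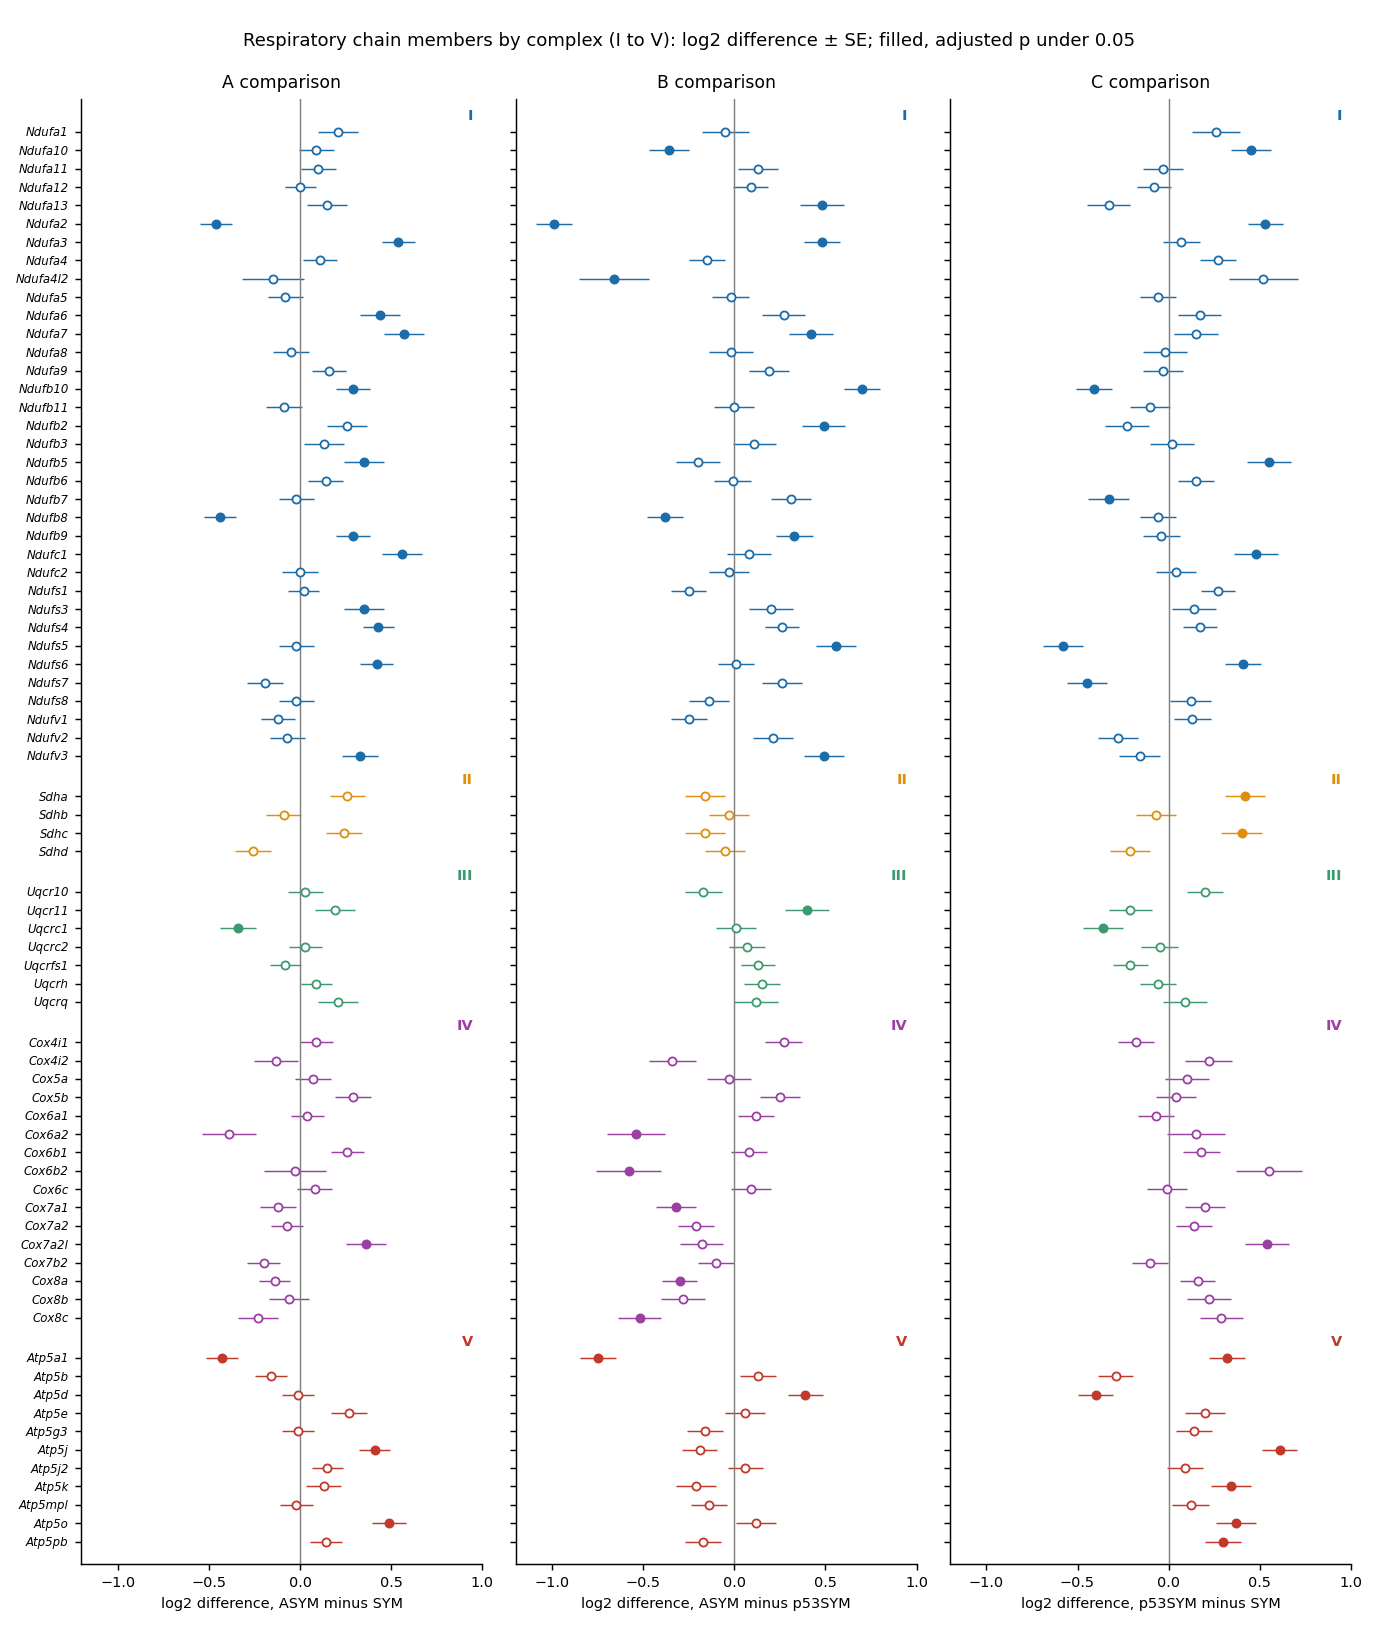
Log2 difference of members, not all of them drawn (points, with bars of 1 SE), in comparisons A, B and C, grouped by complex, with filled points for members called by limma. Most points lie within 0.5 of zero, the called members of A are mainly complex I genes to the right of zero, and Ndufa2 (-0.99) and Atp5a1 (-0.75) lie farthest to the left in B.

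Complex I holds 36 of the 74 members. In A, 12 of them were called higher in Ind-8 and 2 lower (33.3% and 5.56%, median 0.12), in B 8 and 4 (22.2% and 11.1%, median 0.10, but -0.04 after renewed quantile normalization) and in C 5 and 4 (13.9% and 11.1%, median 0.05). The C median was 0.18 after renewed quantile normalization, -0.01 without tI-3 replicate 1 and 0.15 without tI-3 replicate 2. All probe sets had 10.9% and 11.0% in A, 15.6% and 15.5% in B, and 10.2% and 15.1% in C. Most complex I members are bright. Probe sets with a mean above 10 had 16.4% and 19.7% in A, 25.4% and 8.59% in B, and 11.3% and 29.3% in C. Most members of complex I are accessory subunits, around a core that carries the flavin, the iron-sulfur clusters and the quinone site. By the F test 19 complex I members varied (52.8%), beside 41.1% of all probe sets and 57.8% of the bright ones. Ind-8 was the highest line for 12 of the 19. The B split became 5 and 6 with renewed quantile normalization and 5 and 5 with chromosomes centred, and the C split 9 and 2 or 7 and 2. With the hybridization control covariate the splits were 5 and 2 in A, 1 and 1 in B, and 4 and 2 in C. Without a single array the 12 of A became 5 (Ind-8 replicate 2, Con-3 replicate 1 or Con-3 replicate 3) or 7 (Ind-8 replicate 1). Likewise the B split was 2 and 1 without tI-3 replicate 2 and 6 and 1 without tI-3 replicate 1, and the C split 1 and 3 without tI-3 replicate 1, 4 and 1 without tI-3 replicate 2, and 5 and 1 without Con-3 replicate 2.

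Ndufa7, an accessory subunit of the arm that holds the NADH site, had the largest rise of A. It read 11.62, 11.57 and 11.30 in Ind-8, 10.87, 11.02 and 10.89 in Con-3, and 11.19 and 10.96 in tI-3. All 3 Ind-8 arrays lay above every array of the other lines, while tI-3 overlapped Con-3. The difference was 0.57 ± 0.11 in A, a 1.49-fold higher level (adjusted p = 0.00489), and 0.42 ± 0.12 in B (adjusted p = 0.027). The A call held under every alternative tried, with adjusted p from 0.00193 to 0.0318. The B call ended under 6 alternatives, among them renewed quantile normalization (0.31, adjusted p = 0.0609), chromosomes centred (0.34, 0.0544) and leaving out tI-3 replicate 2 (0.31, 0.209), with 0.0135 to 0.419 as its range.

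Ndufa3, another accessory subunit, had the same shape. It read 10.97, 11.03 and 10.87 in Ind-8 against 10.33, 10.52 and 10.40 in Con-3 and 10.54 and 10.42 in tI-3. Ind-8 stood alone above the others, which overlapped, and both A (0.54 ± 0.091, adjusted p = 0.00224) and B (0.48 ± 0.10, adjusted p = 0.00703) were called. The A call held under every alternative tried, and the B call did not hold without tI-3 replicate 2 (adjusted p = 0.0641) or with the hybridization control covariate (0.174; 0.00299 to 0.174 over the alternatives).

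Other accessory subunits also rose in A. Ndufc1, a small membrane subunit, read 10.69, 10.56 and 10.41 in Ind-8, 9.98, 10.11 and 9.87 in Con-3, and 10.57 and 10.38 in tI-3, so that Con-3 was low and the other lines overlapped. It was called in A (0.56 ± 0.11, adjusted p = 0.00468), under every alternative tried, and in C (0.48 ± 0.12, adjusted p = 0.0146), though in C not without tI-3 replicate 1 (0.112) or with chromosomes centred (0.107; range over the alternatives 0.00351 to 0.112). Ndufs4, a late-joining subunit whose loss in mice causes a disease like Leigh syndrome, read 9.88, 9.99 and 9.89 in Ind-8, 9.49, 9.48 and 9.51 in Con-3 and 9.73 and 9.60 in tI-3. These lines did not overlap, with tI-3 between the others, and A was called (0.43 ± 0.084, adjusted p = 0.00541) under every alternative tried. Ndufa6, which sits at the joint between the matrix and membrane arms, read 11.19, 11.26 and 10.96 in Ind-8 against 10.59, 10.83 and 10.67 in Con-3. It rose by 0.44 in A (adjusted p = 0.0159), a call that ended without Ind-8 replicate 1 (0.0522), Ind-8 replicate 2 (0.067), Con-3 replicate 1 (0.0521) or Con-3 replicate 3 (0.0507) or with the hybridization control covariate (0.0748), with 0.00825 to 0.0748 as the range over the alternatives.

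A pair of complex I members fell in A. Ndufa2, an accessory subunit with a thioredoxin-like fold, read 10.97, 11.05 and 10.93 in Ind-8, 11.44, 11.48 and 11.41 in Con-3, and 12.06 and 11.88 in tI-3. The lines stood on 3 separate levels, Ind-8 lowest and tI-3 highest. It had the largest difference of any member, -0.99 ± 0.097 in B, a 0.503-fold level (adjusted p = 0.00012), beside -0.46 ± 0.087 in A (adjusted p = 0.00425) and 0.53 ± 0.097 in C (adjusted p = 0.00311). The B and C calls held under every alternative tried, and the A call did not hold with chromosomes centred (0.0613; 0.00113 to 0.0613 over the alternatives).

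Ndufb8, a membrane subunit whose protein is often blotted as a readout of assembled complex I, had a different order. It read 11.07, 11.18 and 11.24 in Ind-8, 11.54, 11.66 and 11.61 in Con-3, and 11.58 and 11.50 in tI-3. Ind-8 alone was low, and the other lines overlapped. The difference was -0.44 ± 0.087 in A (adjusted p = 0.00543), under every alternative tried (0.00152 to 0.0422), and -0.38 ± 0.098 in B (adjusted p = 0.0163). The B call did not hold with the hybridization control covariate (-0.38, adjusted p = 0.213; 0.00596 to 0.213 over the alternatives). Nor did it hold without tI-3 replicate 1 (-0.33) or tI-3 replicate 2 (-0.42).

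The leading rises of B were all complex I members. Ndufb10, a membrane subunit on the intermembrane face, read 10.74, 10.73 and 10.67 in Ind-8, 10.29, 10.47 and 10.50 in Con-3, and 10.09 and 9.93 in tI-3. The 3 lines did not overlap and ran from Ind-8 down to tI-3. Its difference was 0.70 ± 0.10 in B, a 1.63-fold level (adjusted p = 0.00113), 0.29 in A (adjusted p = 0.0497) and -0.41 in C (adjusted p = 0.0149). The B call held under every alternative tried. The A call, near the threshold, ended under 14 of them (0.0274 to 0.137), and the C call ended without Con-3 replicate 2 (0.0522) or tI-3 replicate 2 (0.131; 0.00694 to 0.131 over the alternatives).

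Ndufs5, an accessory subunit on the same face, read 11.24, 11.27 and 11.12 in Ind-8, 11.12, 11.30 and 11.27 in Con-3, and 10.74 and 10.57 in tI-3. Here tI-3 alone was low and the other lines overlapped. It rose by 0.56 ± 0.11 in B (adjusted p = 0.00403) and had the largest fall of C, -0.58 ± 0.11, a 0.67-fold level (adjusted p = 0.00295). The C call held under every alternative tried. The B call ended only with the hybridization controls as a covariate, where the difference was 0.57 (adjusted p = 0.0958; 0.00145 to 0.0958 over the alternatives).

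The remaining B rises named by the rule were less stable. Ndufv3, a small subunit of the flavoprotein part, read 10.38, 10.58 and 10.65 in Ind-8 and 10.07 and 10.02 in tI-3, and rose by 0.49 (adjusted p = 0.00961). Ndufb2, a membrane subunit, read 10.42, 10.62 and 10.73 against 10.10 and 10.11 and also rose by 0.49 (adjusted p = 0.0152). Ndufa13, known as GRIM-19 and linked to cell death as well as to complex I, read 11.63, 11.89 and 11.71 against 11.39 and 11.15 and rose by 0.48 (adjusted p = 0.0127). In each of them Ind-8 and tI-3 did not overlap. Con-3 read 10.09, 10.32 and 10.20 for Ndufv3, 10.15, 10.43 and 10.41 for Ndufb2, and 11.56, 11.69 and 11.53 for Ndufa13, and none was called in C (-0.16, -0.23 and -0.33). Ndufv3 was also called in A (0.33, adjusted p = 0.0395), a call that ended under 8 alternatives (0.0227 to 0.126). Without tI-3 replicate 2 none of the 3 was called (adjusted p = 0.0699, 0.0802 and 0.125), and Ndufb2 was not called without tI-3 replicate 1 either (0.0666) or after renewed quantile normalization (0.0652). With the hybridization control covariate the differences were 0.49, 0.63 and 0.31, and none of the 3 was called (adjusted p = 0.172, 0.109 and 0.368). Nor was Ndufa13 called with chromosomes centred (0.34, adjusted p = 0.05). Over all alternatives the adjusted p ran from 0.00538 to 0.172 for Ndufv3, 0.00932 to 0.109 for Ndufb2 and 0.00627 to 0.368 for Ndufa13.

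In C the complex I rises beside Ndufa2 and Ndufc1 were Ndufb5, Ndufa10 and Ndufs6. Ndufb5, a membrane subunit, read 11.12 and 10.81 in tI-3, 10.36, 10.49 and 10.39 in Con-3, and 10.83, 10.83 and 10.64 in Ind-8. Con-3 was low and the other lines overlapped, and C was called (0.55 ± 0.12, adjusted p = 0.00688), though not without tI-3 replicate 1 (0.0685; 0.00167 to 0.0685 over the alternatives). In A it was called (0.35, adjusted p = 0.0372) but lost the call under 7 alternatives (0.0206 to 0.167). Ndufa10, a kinase-like subunit, read 10.81 and 10.74 in tI-3, 10.19, 10.39 and 10.41 in Con-3, and 10.29, 10.49 and 10.48 in Ind-8. There tI-3 alone was high, with 0.45 in C (adjusted p = 0.0134), a call that ended without tI-3 replicate 1 (0.0811) or tI-3 replicate 2 (0.0557) and with the hybridization control covariate (0.0686; 0.00472 to 0.0811 over the alternatives). In B it was called lower (-0.36, adjusted p = 0.0327) but lost the call under 4 alternatives (0.0118 to 0.441). Ndufs6, a zinc-binding accessory subunit, read 10.68 and 10.54 in tI-3, 10.23, 10.26 and 10.11 in Con-3, and 10.62 on average in Ind-8. Con-3 alone was low, and Ndufs6 rose by 0.42 in A (adjusted p = 0.00737), under every alternative tried, and by 0.41 in C (adjusted p = 0.0123), the latter not without tI-3 replicate 1 (0.0912; 0.00191 to 0.0912 over the alternatives). Ndufb7, a membrane subunit, fell by 0.33 in C (adjusted p = 0.0443), near the threshold, and lost the call under 12 of 19 alternatives, among them leaving out any Ind-8 replicate (0.0526, 0.0563 and 0.0622), Con-3 replicates 2 and 3 (0.144 and 0.0641) or either tI-3 array (0.0741 and 0.252), with 0.0231 to 0.352 as its range.

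Among the core subunits, Ndufs3, which lies close to the quinone site, was called in A. It read 10.77, 10.87 and 10.88 in Ind-8 and 10.44, 10.69 and 10.35 in Con-3 (0.35, adjusted p = 0.0417), and these lines did not overlap. The call ended under 8 alternatives, among them chromosomes centred (0.33, adjusted p = 0.0565) and leaving out Con-3 replicate 3 (0.28, 0.142), with 0.0202 to 0.215 as its range. Ndufs7, a quinone-site subunit with an iron-sulfur cluster, read 11.01 and 10.74 in tI-3 and 11.20, 11.40 and 11.37 in Con-3 and fell by 0.45 in C (adjusted p = 0.0137). That call ended without Con-3 replicate 2 (0.0513) or tI-3 replicate 2 (0.143), after renewed quantile normalization (0.0507), with the hybridization control covariate (0.0512) and with chromosomes centred, where the difference was -0.09 (adjusted p = 0.529, range over the alternatives 0.0058 to 0.529). Ndufs1, the largest subunit of the matrix arm, had differences of 0.02, -0.25 and 0.27 in A, B and C, and Ndufs8 of -0.02, -0.14 and 0.12. Ndufv1, which binds the flavin, had -0.12, -0.25 and 0.13, and Ndufv2, its partner, -0.07, 0.21 and -0.28. None of these was called. After renewed quantile normalization, however, Ndufs1 was called in B (-0.36, adjusted p = 0.0132) and C (0.38, adjusted p = 0.0104), and Ndufv1 in B (-0.38, adjusted p = 0.0191).

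**Figure D2:**
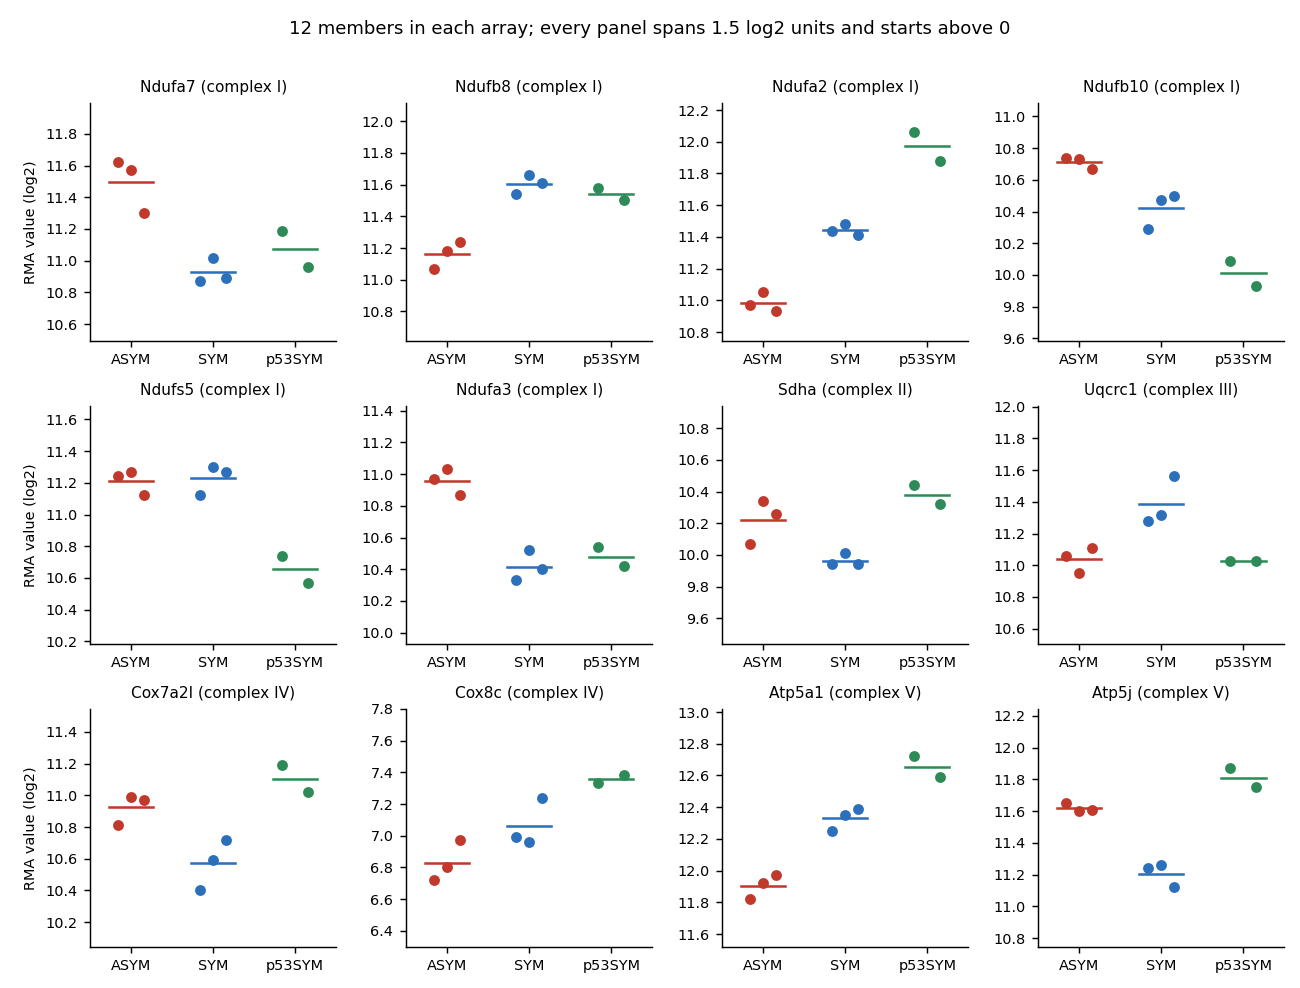
Log2 level of 12 members on each of the 8 arrays, 1 panel per member, with points for Ind-8 (3), Con-3 (3) and tI-3 (2) and every panel spanning 1.5 log2 units. Ndufa7 and Ndufa3 are high in Ind-8 alone, Ndufb8 is low in Ind-8 alone, Ndufs5 is low in tI-3 alone, and Ndufa2 and Atp5a1 stand on 3 separate levels with tI-3 highest.

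Promoters were read for members that lead these comparisons, since they move in different orders among the lines. Of 74 members, 59 matched the RefSeq promoter table (assembly GRCm38.p6), which gives 250 bases before and 50 bases after a listed transcription start. Both strands were searched for GCGCATGC (the NRF1 core), CCGGAAG (ETS factors such as GABP), AAGATGGCG (YY1) and GGGCGG (SP1). A match is a description of the letters and not a shown binding site, and no match says only that these letters are not in the window. The leading rises of A, B and C (Ndufa7, Ndufb10 and Atp5j) are printed with Ndufb8, a leading fall of A, and Ndufs5, the leading fall of C. Each runs 5' to 3' on the strand of the gene, with a match in capitals. They are Ndufa7 at chr17:33824322-33824621 (+), Ndufb8 at chr19:44555393-44555692 (-), Ndufb10 at chr17:24724374-24724673 (-), Atp5j at chr16:84834927-84835226 (-) and Ndufs5 at chr4:123718137-123718436 (-). Ndufa7 and Atp5j have 2 listed starts each, of which the first and the second are shown.
Ndufa7: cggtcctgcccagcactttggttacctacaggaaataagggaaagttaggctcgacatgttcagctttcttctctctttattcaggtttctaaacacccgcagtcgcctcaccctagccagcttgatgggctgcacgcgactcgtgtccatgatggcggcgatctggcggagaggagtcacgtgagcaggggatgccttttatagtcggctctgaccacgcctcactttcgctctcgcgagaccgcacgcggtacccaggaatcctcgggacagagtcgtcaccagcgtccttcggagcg
Ndufb8: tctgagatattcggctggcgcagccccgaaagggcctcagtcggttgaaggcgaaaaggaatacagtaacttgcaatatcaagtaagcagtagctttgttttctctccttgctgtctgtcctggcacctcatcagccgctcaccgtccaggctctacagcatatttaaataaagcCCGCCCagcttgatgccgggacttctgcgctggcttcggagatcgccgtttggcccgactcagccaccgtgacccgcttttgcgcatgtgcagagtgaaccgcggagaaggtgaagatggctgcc
Ndufb10: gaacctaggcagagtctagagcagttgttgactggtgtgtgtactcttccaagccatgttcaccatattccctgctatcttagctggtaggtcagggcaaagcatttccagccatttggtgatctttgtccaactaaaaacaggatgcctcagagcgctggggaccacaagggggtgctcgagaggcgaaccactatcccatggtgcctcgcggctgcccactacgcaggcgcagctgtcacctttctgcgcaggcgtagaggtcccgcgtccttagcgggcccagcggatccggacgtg
Atp5j: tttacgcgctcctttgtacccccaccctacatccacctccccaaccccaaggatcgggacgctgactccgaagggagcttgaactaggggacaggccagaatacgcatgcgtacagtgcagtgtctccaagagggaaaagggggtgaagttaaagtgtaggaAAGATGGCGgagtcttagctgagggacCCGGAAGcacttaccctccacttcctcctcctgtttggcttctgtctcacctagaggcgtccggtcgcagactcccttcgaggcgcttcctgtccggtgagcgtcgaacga
Ndufs5: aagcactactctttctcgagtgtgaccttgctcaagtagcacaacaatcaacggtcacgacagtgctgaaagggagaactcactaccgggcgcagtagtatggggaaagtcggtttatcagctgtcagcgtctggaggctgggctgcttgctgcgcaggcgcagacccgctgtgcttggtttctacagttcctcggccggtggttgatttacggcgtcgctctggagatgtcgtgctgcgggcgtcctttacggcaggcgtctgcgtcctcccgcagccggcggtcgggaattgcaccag
Ndufb8 has an SP1 match on the minus strand that starts at position -75 from the start, and Atp5j has a YY1 match at -88 and an ETS match at -61, both on the plus strand. The other listed start of Atp5j has neither of these and 2 SP1 matches on the minus strand, at -88 and 35. Ndufa7, at both of its starts, Ndufb10 and Ndufs5 hold none of the 4 motifs.

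Across the members, the NRF1 core was found for 8 of 59 (13.6%), beside 3.05% of all 27025 genes in the table and 8.43% of the 1080 with a mean level above 10. They were Atp5k, Cox6a1, Ndufa11, Ndufa6, Ndufa8, Sdhb, Uqcr11 and Uqcrc1. The YY1 motif was found for 7 members (11.9%, beside 1.64% and 4.63%), namely Atp5j, Atp5j2, Ndufa9, Ndufc1, Ndufs4, Ndufs6 and Ndufs7. The ETS motif was found for 14 members (23.7%, beside 9.93% and 26.4%) and the SP1 motif for 25 (42.4%, beside 38.2% and 72.9%).

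Complex II, succinate dehydrogenase, had called members in C alone. There 2 of its 4 members were higher and 0 lower (50% and 0%), beside 10.2% and 15.1% of all probe sets. In A and B 0 were called, beside 10.9% higher and 11.0% lower of all probe sets in A and 15.6% and 15.5% in B. Sdha, the flavoprotein, read 10.44 and 10.32 in tI-3, 9.94, 10.01 and 9.94 in Con-3, and 10.07, 10.34 and 10.26 in Ind-8, and rose by 0.42 ± 0.11 in C (adjusted p = 0.0164). Sdhc, a membrane anchor, read 10.31 and 10.13 in tI-3 against 9.72, 9.94 and 9.81 in Con-3 and rose by 0.40 ± 0.11 (adjusted p = 0.0281). In both, tI-3 lay above Con-3 and overlapped Ind-8. The Sdha call ended without tI-3 replicate 1 (0.106; 0.00551 to 0.106 over the alternatives), and the Sdhc call under 5 alternatives (0.0115 to 0.171). Sdhb, the iron-sulfur subunit, had differences of -0.09, -0.03 and -0.07 in A, B and C, and Sdhd, the other anchor, -0.26, -0.05 and -0.21, none of them called. The count of 2 in C was 1 without Con-3 replicate 1, Con-3 replicate 3 or tI-3 replicate 2 and 0 without tI-3 replicate 1, and a count of 0 in A was 1 without Ind-8 replicate 1. With the hybridization control covariate there was 1 lower call in A and 1 higher call in C. The complex median was 0.07 in A, -0.10 in B and 0.16 in C.

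Complex III gave 0 higher and 1 lower in A (0% and 14.3%), 1 and 0 in B (14.3% and 0%), and 0 and 1 in C (0% and 14.3%). All probe sets had 10.9% and 11.0%, 15.6% and 15.5%, and 10.2% and 15.1%. By the F test 1 of the 7 members of complex III varied (14.3%), beside 41.1% of all probe sets and 57.8% of the bright ones. Uqcrc1, a core protein on its matrix side, read 11.06, 10.95 and 11.11 in Ind-8, 11.28, 11.32 and 11.56 in Con-3, and 11.03 and 11.03 in tI-3. Con-3 alone was high, and the other lines overlapped. It fell by 0.34 ± 0.099 in A (adjusted p = 0.0303) and by 0.36 ± 0.11 in C (adjusted p = 0.0371). The A call ended without Ind-8 replicate 1 (0.0652), Ind-8 replicate 2 (0.109), Con-3 replicate 2 (0.0553) or Con-3 replicate 3 (0.104), with chromosomes centred (0.07) and with the hybridization control covariate (0.171), with 0.0151 to 0.171 over the alternatives. The C call ended without Con-3 replicate 2 (0.0622) or Con-3 replicate 3 (0.088), after renewed quantile normalization (0.137) and with chromosomes centred (0.102). It ended too with the replicate number as a term (-0.30, adjusted p = 0.0598) and in the fit of the compared lines only (0.06). Its range over the alternatives with both tI-3 arrays was 0.0182 to 0.137. Without tI-3 replicate 1 or tI-3 replicate 2 the difference was -0.36 and was not called.

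Uqcrc2, the partner core protein, had differences of 0.03, 0.07 and -0.05 in A, B and C, and Uqcrfs1, the Rieske iron-sulfur protein, -0.08, 0.13 and -0.21, none called. Uqcr11, a small subunit singled out after its values were seen, was the 1 member called higher in B (0.40, adjusted p = 0.0333), with 11.54, 11.73 and 11.61 in Ind-8 against 11.27 and 11.19 in tI-3. That count of 1 became 0 without Ind-8 replicate 2, Ind-8 replicate 3 or either tI-3 array. The difference was 0.30 after renewed quantile normalization (adjusted p = 0.106) and 0.09 with chromosomes centred (0.576), not called in either, with 0.0159 to 0.576 over the alternatives. After renewed quantile normalization the complex III counts turned from 1 higher and 0 lower to 0 and 1 in B, where Uqcr10 was the lower call (-0.32), and from 0 and 1 to 1 and 0 in C. With chromosomes centred no member of the complex was called, and with the hybridization control covariate only the lower call of C was left. The complex median was 0.03 in A, 0.12 in B (-0.01 after renewed quantile normalization) and -0.06 in C (0.06 after renewed quantile normalization and 0.09 with chromosomes centred).

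Complex IV, cytochrome c oxidase, combines subunits made in all tissues with isoforms known from heart, muscle, lung or testis. The broadly used isoforms were bright. Cox4i1, whose product is a regulated core-facing subunit, read 12.95, 13.03 and 12.89 in Ind-8, 12.80, 12.90 and 12.89 in Con-3, and 12.78 and 12.58 in tI-3, with differences of 0.09, 0.27 and -0.18 in A, B and C and no call. Cox5a had 0.07, -0.03 and 0.10, Cox5b 0.29, 0.25 and 0.04, Cox6a1 0.04, 0.12 and -0.07, Cox6b1 0.26, 0.08 and 0.18, and Cox7a2 -0.07, -0.21 and 0.14, none called. After renewed quantile normalization Cox5b was called in A (0.29), Cox6b1 in A (0.25) and C (0.30), and Cox7a2 in B (-0.28). Cox8a read 11.93, 11.88 and 11.98 in Ind-8 and 12.27 and 12.20 in tI-3, which did not overlap, and was called lower in B (-0.30 ± 0.097, adjusted p = 0.0369), a call that ended under 8 alternatives, among them chromosomes centred (-0.26, adjusted p = 0.0502; 0.00899 to 0.37 over the alternatives).

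Cox7a2l, which helps complex III and complex IV join into supercomplexes, was the only member of complex IV called in A and in C. It read 10.81, 10.99 and 10.97 in Ind-8, 10.40, 10.59 and 10.72 in Con-3, and 11.19 and 11.02 in tI-3. The lines did not overlap, with Con-3 lowest and tI-3 highest. The difference was 0.36 ± 0.11 in A (adjusted p = 0.039) and 0.54 ± 0.12 in C (adjusted p = 0.00873). In C it was not called without tI-3 replicate 1 (0.0731) or with the hybridization control covariate (0.0538; 0.0034 to 0.0731 over the alternatives), and the complex IV count of 1 in A became 0 without Ind-8 replicate 2, Ind-8 replicate 3, Con-3 replicate 1 or Con-3 replicate 2.

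The isoforms with restricted expression read low. There were 8 members with a mean of 7.5 or less, namely Cox4i2, Cox6a2, Cox6b2, Cox7a1, Cox7b2, Cox8b, Cox8c and Ndufa4l2, and 2 of them averaged under the 25th percentile of 4.3. All 8 were lower in Ind-8 than in Con-3 and tI-3 (median -0.14 in A and -0.43 in B), and in B 5 were called lower, Cox8c, Cox6a2, Cox6b2, Cox7a1 and Ndufa4l2 (62.5%, beside 15.5% of all probe sets). On the arrays their median deviation from the mean was -0.17, -0.19 and -0.13 in Ind-8, -0.03, -0.03 and 0.15 in Con-3, and 0.14 and 0.33 in tI-3. The 3 highest values are those of Con-3 replicate 3 and both tI-3 arrays, which also had the highest lower quartiles (4.38, 4.39 and 4.43). The part that the lower quartile has in these calls was not tested. With the hybridization controls as a covariate the B calls over all probe sets went from 3509 higher and 3500 lower to 668 and 352, those of all members to 1 and 2, and those of the 8 low members to 0, with a median of -0.25.

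Cox8c, a testis isoform, read 6.72, 6.80 and 6.97 in Ind-8, 6.99, 6.96 and 7.24 in Con-3, and 7.33 and 7.38 in tI-3. It fell by 0.52 ± 0.12 in B (adjusted p = 0.00866), with no overlap of the lines compared, but was not called without tI-3 replicate 2 (0.0659) or with the hybridization control covariate (-0.28, adjusted p = 0.379; 0.00272 to 0.379 over the alternatives). Cox6a2, the heart and muscle isoform, read 6.41, 6.63 and 6.68 in Ind-8 and 6.95 and 7.26 in tI-3 and fell by 0.54 in B (adjusted p = 0.0318). Cox6b2, a testis isoform, read 4.44, 4.35 and 4.67 against 5.28 and 4.85 and fell by 0.58 (adjusted p = 0.037). In both, Ind-8 lay below tI-3 without overlap. The Cox6a2 call ended without Ind-8 replicate 1 (0.0924), Ind-8 replicate 2 (0.0599) or tI-3 replicate 2 (0.236), and with the hybridization controls as a covariate the difference was -0.05 (adjusted p = 0.919), with 0.00335 to 0.919 over the alternatives. The Cox6b2 call ended without Ind-8 replicate 1 (0.0876), Ind-8 replicate 2 (0.103) or tI-3 replicate 1 (0.252) and after renewed quantile normalization (0.15), and with that covariate (-0.49, adjusted p = 0.419), with 0.00344 to 0.419 over the alternatives.

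Ndufa4l2, a relative of Ndufa4 that hypoxia induces, read 5.59, 5.42 and 5.51 in Ind-8, 5.35, 5.51 and 6.11 in Con-3, and 6.09 and 6.26 in tI-3. Con-3 replicate 3 sat apart from the other Con-3 arrays, near tI-3. The gene fell by 0.66 ± 0.19 in B (adjusted p = 0.0245), a call that ended without Ind-8 replicate 2 (0.0686), tI-3 replicate 1 (0.0606) or tI-3 replicate 2 (0.157) and with the hybridization control covariate (0.01, adjusted p = 0.99), with 0.00277 to 0.99 over the alternatives. Ndufa4 itself, counted under complex I by name though its protein is found in complex IV, had differences of 0.11, -0.15 and 0.27 in A, B and C with no call, and moving it to complex IV changed no called count. Under other scalings Ndufa4 was called, in C after renewed quantile normalization (0.37, adjusted p = 0.0164), and with chromosomes centred in B (-0.29, 0.0482) and C (0.35, 0.0274). Cox4i2, the lung and hypoxia isoform, had -0.13, -0.34 and 0.22, and Cox8b, of heart and muscle, -0.06, -0.28 and 0.22, none called. Cox7a1, the heart and muscle isoform, read 3.65, 3.57 and 3.58 in Ind-8 and 3.76 and 4.09 in tI-3, at the bottom of the scale, and was called lower in B (-0.32, adjusted p = 0.048). That call ended under 12 alternatives, among them renewed quantile normalization (-0.18, adjusted p = 0.23) and chromosomes centred (-0.28, 0.0832), with 0.0207 to 0.548 as its range.

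As a whole complex IV gave 1 higher and 0 lower in A (6.25% and 0%), 0 and 5 in B (0% and 31.2%), and 1 and 0 in C (6.25% and 0%), where all probe sets had 10.9% and 11.0%, 15.6% and 15.5%, and 10.2% and 15.1%. Renewed quantile normalization gave 3 and 0, 0 and 4, and 3 and 0, centring of chromosomes 2 and 0, 0 and 3, and 2 and 0, and with the hybridization control covariate no member was called. Centring on array medians gave 2 and 0 in C. The 5 of B became 1 without Ind-8 replicate 1, Ind-8 replicate 2 or tI-3 replicate 2, and 3 without Ind-8 replicate 3, Con-3 replicate 2 or tI-3 replicate 1. The 1 of C became 3 without Con-3 replicate 3 and 0 without tI-3 replicate 1. In A 1 member was called lower without Con-3 replicate 1. The complex median was -0.05 in A (0.01 with chromosomes centred), -0.19 in B and 0.15 in C. Of the lower calls of B only Cox8a was a bright member, the others being the low members Cox6a2, Cox6b2, Cox7a1 and Cox8c. The 8 low members, all but Ndufa4l2 from this complex, had medians of -0.14 in A and -0.43 in B. With low members left out, the median deviation of complex IV on the arrays was 0.09, 0.09 and 0.02 in Ind-8. It was -0.07, -0.03 and -0.05 in Con-3, and 0.14 and -0.06 in tI-3. The medians of A and B thus mix bright and low members.

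Complex V is the ATP synthase. In C 5 of its 11 members were called higher in tI-3 than in Con-3 and 1 lower (45.5% and 9.09%, beside 10.2% and 15.1% of all probe sets; median 0.20). In A there were 2 and 1 (18.2% and 9.09%, beside 10.9% and 11.0%; median 0.13) and in B 1 and 1 (9.09% each, beside 15.6% and 15.5%; median -0.14). Bright probe sets had 16.4% and 19.7% in A, 25.4% and 8.59% in B, and 11.3% and 29.3% in C. Of the 5, Atp5k (0.34, adjusted p = 0.0393) and Atp5pb (0.30, adjusted p = 0.0458) lost the call under 10 and 12 alternatives, with ranges of 0.0161 to 0.182 and 0.0114 to 0.449. Atp5j, coupling factor 6 of the stalk, read 11.65, 11.60 and 11.61 in Ind-8, 11.24, 11.26 and 11.12 in Con-3, and 11.87 and 11.75 in tI-3. The lines did not overlap, with Con-3 lowest and tI-3 highest. It had the largest rise of C, 0.61 ± 0.095, a 1.52-fold level (adjusted p = 0.00129), called under every alternative tried (0.00028 to 0.0155), and 0.41 ± 0.085 in A (adjusted p = 0.00642), also under every alternative. Atp5o, the stalk subunit that confers oligomycin sensitivity, read 11.04, 11.09 and 10.91 in Ind-8, 10.59, 10.58 and 10.42 in Con-3, and 10.98 and 10.82 in tI-3. Con-3 was low and the other lines overlapped, and it rose by 0.49 ± 0.094 in A (adjusted p = 0.0049), under every alternative tried, and by 0.37 in C (adjusted p = 0.0269). In C the call ended with chromosomes centred (0.25, adjusted p = 0.106) and without either tI-3 array, Con-3 replicate 2 or Con-3 replicate 3 (0.00473 to 0.165 over the alternatives).

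Atp5a1, the alpha subunit of the catalytic head, was the 1 member of complex V called lower in A. It read 11.82, 11.92 and 11.97 in Ind-8, 12.25, 12.35 and 12.39 in Con-3, and 12.72 and 12.59 in tI-3. The 3 lines did not overlap, with Ind-8 lowest and tI-3 highest, the order seen for Ndufa2. Atp5a1 fell by 0.75 ± 0.099 in B (adjusted p = 0.00059), under every alternative tried, and by 0.43 ± 0.088 in A (adjusted p = 0.00664), and rose by 0.32 in C (adjusted p = 0.0366). The A call did not hold with chromosomes centred (0.142; 0.00166 to 0.142 over the alternatives). The C call ended under 7 alternatives, among them chromosomes centred (0.17, adjusted p = 0.215) and leaving out either tI-3 array (0.188 and 0.0761; 0.0114 to 0.215 over the alternatives).

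Of the other catalytic and membrane parts, Atp5b, the beta subunit, read 13.67, 13.65 and 13.80 in Ind-8, 13.86, 13.85 and 13.88 in Con-3, and 13.65 and 13.51 in tI-3, with differences of -0.16, 0.13 and -0.29 in A, B and C and no call. Its B and C differences turned to -0.18 and 0.01 after renewed quantile normalization and to -0.18 and 0.07 with chromosomes centred, again not called. The gamma subunit Atp5c1 and the subunit c genes Atp5g1 and Atp5g2 had no probe set, and Atp5g3, the third subunit c gene, had -0.01, -0.16 and 0.14 with no call. After renewed quantile normalization Atp5g3 was called lower in B (-0.39, adjusted p = 0.00732) and higher in C (0.33, adjusted p = 0.0171). Atp5d, the delta subunit of the head, read 12.36, 12.32 and 12.36 in Ind-8, 12.23, 12.40 and 12.42 in Con-3, and 11.98 and 11.93 in tI-3. There tI-3 alone was low. The rise of 0.39 in B (adjusted p = 0.0136) ended without tI-3 replicate 2 (0.0921), after renewed quantile normalization (0.0608), with the hybridization control covariate (0.11) and with chromosomes centred (0.08, adjusted p = 0.514; 0.00458 to 0.514 over the alternatives). The fall of 0.40 ± 0.097 in C (adjusted p = 0.0132) ended without tI-3 replicate 2 (0.0902), after renewed quantile normalization (0.0917) and with chromosomes centred (-0.04, adjusted p = 0.751; 0.00362 to 0.751 over the alternatives). Of the complex V split of 5 and 1 in C, 3 and 1 were left without any Ind-8 replicate or Con-3 replicate 3, 2 and 1 without Con-3 replicate 1, 1 and 1 without Con-3 replicate 2 or tI-3 replicate 1, and 1 and 0 without tI-3 replicate 2. It became 5 and 2 with arrays centred on their medians, 6 and 0 after renewed quantile normalization and 1 and 0 with chromosomes centred, where the A split became 2 and 0 and the B split 0 and 1. The B split was 0 and 4 after renewed quantile normalization and 0 and 1 without tI-3 replicate 2. With the hybridization control covariate it was 0 and 1, and the C split 2 and 1.

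**Figure D3:**
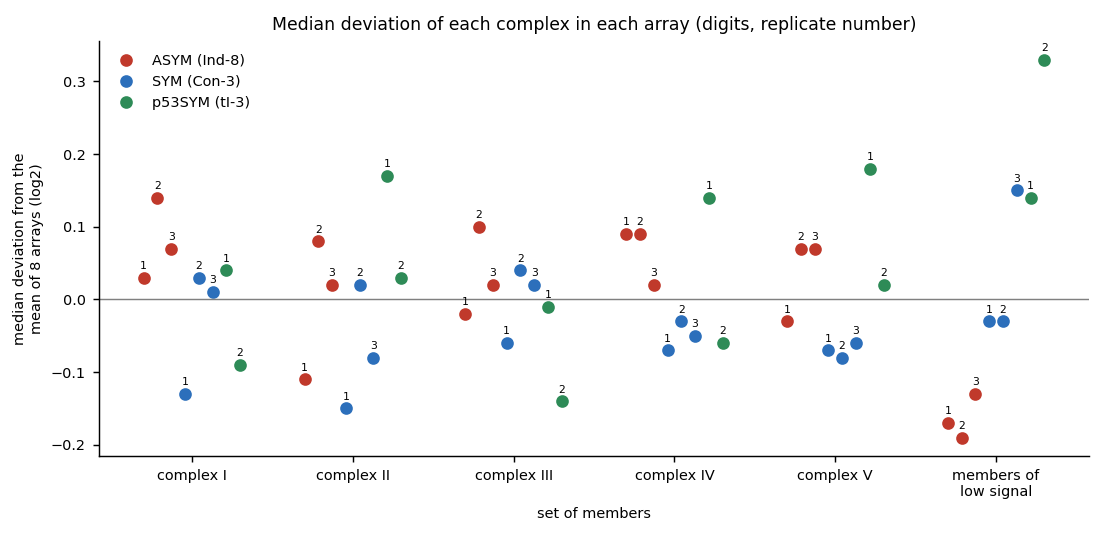
Median deviation of each complex's members from their own means over the 8 arrays (log2; members with a mean above 7.5), with the 8 low members shown apart. Complex V is highest on tI-3 replicate 1 (0.18), complex I on Ind-8 replicate 2 (0.14), and the low members run from -0.19 in Ind-8 to 0.33 in tI-3.

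The complexes also varied between arrays of 1 line. The median deviation of the complex I members was 0.03, 0.14 and 0.07 in Ind-8, -0.13, 0.03 and 0.01 in Con-3, and 0.04 and -0.09 in tI-3. Con-3 replicate 1 and tI-3 replicate 2 were low for the brighter members as a whole, at -0.12 and -0.06, while Ind-8 replicate 2 and tI-3 replicate 1 were high, at 0.09 and 0.08. Lines overlapped for complex I on this measure. For complex V the values were -0.03, 0.07 and 0.07 in Ind-8, -0.07, -0.08 and -0.06 in Con-3, and 0.18 and 0.02 in tI-3, so that all Con-3 arrays were the lowest. Differences of this size between replicates are close to the complex medians of A, B and C.

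Position in the genome was a property that the choice of members did not use, and it went with their differences. Ndufa2 and Atp5a1, the members with the largest falls of B, both lie on chromosome 18, where the other 297 probe sets had medians of -0.22 in A, -0.37 in B and 0.17 in C. On chromosome 10 the other 578 probe sets had medians of 0.33 in B and -0.36 in C, and its 6 members (Atp5b, Atp5d, Ndufa12, Ndufa4l2, Ndufs7 and Uqcr11) had 0.20 and -0.25. On chromosome 16, which holds Atp5j and Atp5o, the medians were 0.13 in A and 0.14 in C, and those of the members 0.45 and 0.49. Over all chromosomes together, the other probe sets had medians of -0.04, 0.03 and -0.01. These medians are over probe sets with a mean above the 25th percentile. What sets them was not tested.

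Across the 74 members, the difference of a member and the median of its chromosome had a Pearson r of 0.59 in A, 0.51 in B and 0.55 in C. Over the 66 members with a mean above 7.5 it was 0.65, 0.62 and 0.66, and without the members on chromosomes 10 and 18 it was 0.51, 0.48 and 0.56 (66 members). The points share the 8 arrays and members of 1 chromosome share its median, so these values describe the data and carry no test. With each chromosome centred, 12 of the 15 higher calls of A and 1 of its 4 lower calls remained, Ndufb8 being the lower one. In B 5 of 10 higher and 8 of 10 lower calls remained, and in C 8 of 13 and 2 of 6. Ndufa2 kept a difference of -0.61 and Atp5a1 of -0.37 in B after centring, both still called.

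**Figure D4:**
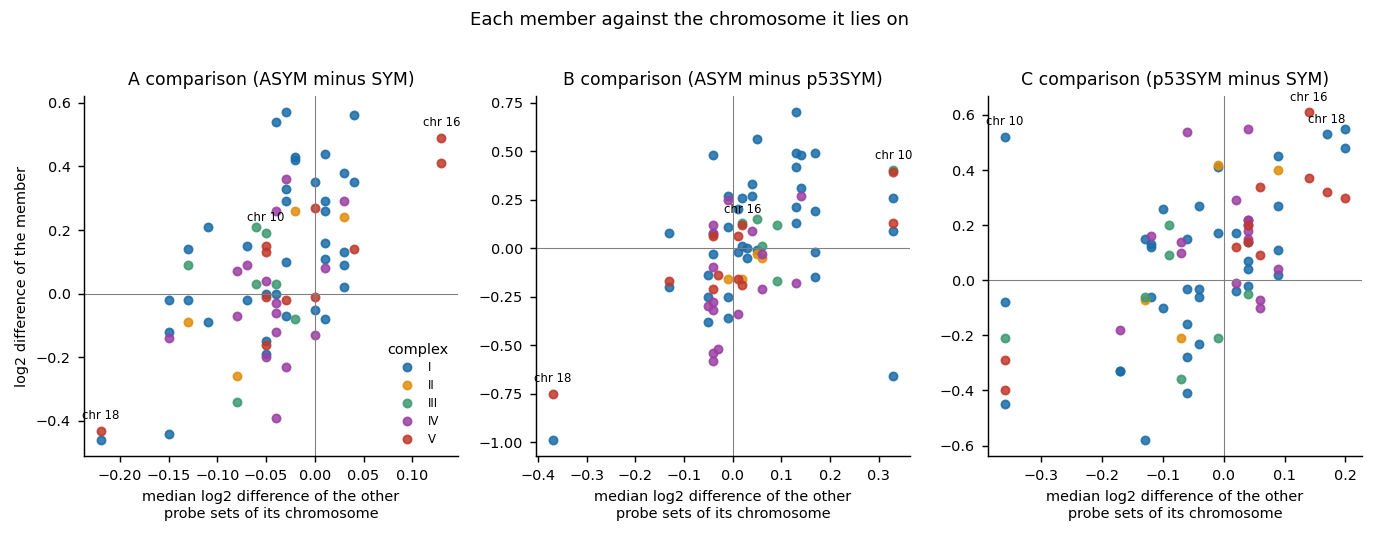
Log2 difference of each member against the median log2 difference of the other probe sets on its chromosome, 1 panel for each of A, B and C, with the members on chromosomes 10, 16 and 18 marked. Members of chromosome 18 sit lowest in B (median -0.87, other probe sets -0.37), and Pearson r over the 74 members is 0.59, 0.51 and 0.55.

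Parts of the chain outside the naming rule were few. Cyc1, the cytochrome c1 of complex III, read 11.69, 11.71 and 11.75 in Ind-8 and 11.95, 12.07 and 12.15 in Con-3. It fell by 0.34 in A (adjusted p = 0.0199), the same direction as Uqcrc1, but not without Ind-8 replicate 1 (0.0571), Ind-8 replicate 2 (0.0609), Con-3 replicate 2 (0.0648) or Con-3 replicate 3 (0.0725) or with the hybridization control covariate (0.0947), with 0.00716 to 0.0947 over the alternatives. Atpif1, the inhibitor of ATP synthase, rose by 0.39 in B (adjusted p = 0.0456), a call that ended without Ind-8 replicate 1 (0.108), Ind-8 replicate 2 (0.119), Con-3 replicate 2 (0.0651) or tI-3 replicate 2 (0.343), after renewed quantile normalization (0.122), with chromosomes centred (0.0697), in the fit of the compared lines only (0.0546), with arrays centred on their medians (0.0582) and with the hybridization control covariate (0.08, adjusted p = 0.859), with 0.0134 to 0.859 over the alternatives. Cycs, cytochrome c, averaged 4.13 to 4.26, near the bottom of the scale, and was not called. These were 3 of 6 genes listed, with medians of 0.10, -0.03 (0.15 after renewed quantile normalization) and -0.18 in A, B and C, and the B split of 1 and 0 became 0 and 1 after that normalization. No probe set carried the name of a mitochondrially encoded subunit.

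Assembly factors, which build the complexes and are not part of them, were low in tI-3 in most of their B and C calls. Of 42 found among 49 listed, 7 were higher and 8 lower in A (median 0.05), 12 and 1 in B (median 0.23), and 1 and 16 in C (median -0.17). In B that is 28.6% and 2.38%, beside 15.6% and 15.5% of all probe sets, and in C 2.38% and 38.1%, beside 10.2% and 15.1%. Coa3, a factor for the Cox1 subunit, read 8.82, 9.11 and 8.97 in Ind-8, 8.92, 9.26 and 9.02 in Con-3, and 7.90 and 7.75 in tI-3. Only tI-3 was low, by 1.14 ± 0.13 in B (adjusted p = 0.00025) and -1.24 ± 0.13 in C (adjusted p = 0.00014), under every alternative tried. Surf1, whose loss causes Leigh syndrome with low complex IV, rose by 0.85 in B (adjusted p = 0.00107), and Uqcc2, a factor for complex III, fell by 0.81 in C (adjusted p = 0.00034). Cox20 rose by 0.83 in A (adjusted p = 0.00221), with 9.53, 9.72 and 9.23 in Ind-8 above 8.62, 8.82 and 8.55 in Con-3, and Coa7 and Foxred1 fell by 0.50 and 0.49 there (adjusted p = 0.00409 and 0.0032). No left-out array ended these calls. Cmc1, a factor for complex IV, rose by 0.72 in A (adjusted p = 0.0196), a call that ended without Ind-8 replicate 1 (0.0698), Ind-8 replicate 2 (0.0671) or Con-3 replicate 3 (0.0763) and with the hybridization control covariate (0.48, adjusted p = 0.128; 0.00062 to 0.128 over the alternatives). The Surf1 call ended with the hybridization control covariate (0.67, adjusted p = 0.0857; 0.00053 to 0.0857 over the alternatives).

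The counts of the assembly factors depended on tI-3 replicate 2, without which they were 5 and 0 in B and 0 and 6 in C. In A they were 3 and 6 without Ind-8 replicate 2 and 3 and 5 without Con-3 replicate 3. After renewed quantile normalization the B split was 9 and 3 and the C split 3 and 12, and with the hybridization control covariate the splits were 2 and 6 in A, 3 and 0 in B, and 1 and 11 in C. The medians after renewed quantile normalization were 0.03 in A, 0.09 in B and -0.08 in C. The 1 lower call of B was Ndufaf5, a complex I factor (-0.32, adjusted p = 0.0359). It was not called without Ind-8 replicate 1 (0.101) or Ind-8 replicate 2 (0.0696) or in the fit of the compared lines only (0.051). With the hybridization control covariate it was not called either (0.211), with 0.0066 to 0.211 over the alternatives. Nor was it called without tI-3 replicate 1 (-0.31) or tI-3 replicate 2 (-0.32).

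The 1 higher call of C was Sco2, the copper chaperone of complex IV and a known p53 target. It read 8.90, 8.30 and 8.43 in Ind-8, 7.90, 7.77 and 7.88 in Con-3, and 8.56 and 8.63 in tI-3. Con-3, the line without p53, was low, and the p53-carrying lines overlapped. Sco2 rose by 0.69 ± 0.14 in A (adjusted p = 0.00605) and 0.74 ± 0.16 in C (adjusted p = 0.00615), though in C not without tI-3 replicate 2 (0.0545; 0.00088 to 0.0545 over the alternatives). Of the other p53-linked mitochondrial genes, 6 in all, Rrm2b, a subunit of ribonucleotide reductase, rose by 0.70 in B (adjusted p = 0.0264), except without Ind-8 replicate 2 (0.0788) or tI-3 replicate 2 (0.2) or with the hybridization control covariate (0.15, adjusted p = 0.803; 0.00769 to 0.803 over the alternatives). Gls2, a glutaminase, fell by 0.86 in C (adjusted p = 0.00344), and Fdxr, ferredoxin reductase, by 0.51 (adjusted p = 0.0339), a call absent without Con-3 replicate 2 (0.0887), Con-3 replicate 3 (0.086), tI-3 replicate 1 (0.159) or tI-3 replicate 2 (0.0999; 0.011 to 0.159 over the alternatives). The Fdxr call was also absent with the replicate number as a term (-0.43, adjusted p = 0.0558). Tigar (-0.02, 0.07 and -0.09 in A, B and C) and Aifm1 (-0.08, 0.23 and -0.31) were not called. The medians of the 6 were -0.05, 0.28 and -0.33, and the higher count was 2 in A without Con-3 replicate 1 and 2 in B without Con-3 replicate 3, with 1 lower in A without Ind-8 replicate 1.

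Regulators of mitochondrial biogenesis included the largest difference seen in any of these mitochondrial lists. Ppargc1a, the coactivator PGC-1alpha that drives respiratory chain genes in muscle and brown fat, read 3.80, 3.89 and 3.70 in Ind-8, 3.60, 3.65 and 3.65 in Con-3, and 6.09 and 5.82 in tI-3. It was under the 25th percentile of 4.3 in the first pair of lines and above it in tI-3 alone, with differences of -2.15 ± 0.11 in B (adjusted p = 2.7e-06) and 2.32 ± 0.11 in C (adjusted p = 9.3e-07), under every alternative tried. Nrf1, a factor that binds many of these promoters, read 7.44, 7.24 and 7.31 in Ind-8, 7.74, 7.89 and 7.77 in Con-3, and 7.09 and 7.00 in tI-3. The lines did not overlap, with Con-3 highest, and Nrf1 fell by 0.47 in A (adjusted p = 0.00489) and by 0.76 in C (adjusted p = 0.00057), under every alternative tried. Pprc1, a coactivator related to Ppargc1a, fell by 0.78 in C (adjusted p = 0.00445), and Nrip1, a corepressor of oxidative genes, rose by 0.73 in A (adjusted p = 0.0069). In B, Polrmt, the mitochondrial RNA polymerase, rose by 0.80 (adjusted p = 0.00054) and Tfb1m, a mitochondrial rRNA methyltransferase, by 0.61 (adjusted p = 0.00407). No left-out array ended these calls, and that of Tfb1m ended with the hybridization control covariate (0.50, adjusted p = 0.164; 0.00346 to 0.164 over the alternatives).

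Other regulators called by the same test did depend on single arrays. Pprc1 fell by 0.56 in A (adjusted p = 0.0151), except without Ind-8 replicate 2 (0.0553) or Con-3 replicate 2 (0.0529), with the covariate (0.0769) or with chromosomes centred (0.0682; 0.00259 to 0.0769 over the alternatives). Ppargc1b, a second coactivator of the PGC-1 family, fell by 0.65 in B (adjusted p = 0.0138), except without tI-3 replicate 1 (0.0987), with the covariate (-0.90, adjusted p = 0.0773) or with chromosomes centred (-0.28, adjusted p = 0.209; 0.00539 to 0.209 over the alternatives). Nrip1 rose by 0.60 in C (adjusted p = 0.0252), except without Con-3 replicate 2 (0.0646), Con-3 replicate 3 (0.0662) or tI-3 replicate 2 (0.191) or with chromosomes centred (0.0682; 0.00781 to 0.191 over the alternatives).

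Over the 20 regulators found of 21, 1 was higher and 5 lower in A, 5 and 3 in B, and 3 and 7 in C (medians -0.12, -0.03 and -0.19). As shares these are 5% and 25%, 25% and 15%, and 15% and 35%, beside 10.9% and 11.0%, 15.6% and 15.5%, and 10.2% and 15.1% of all probe sets. The 5 of A became 2 without Ind-8 replicate 2 or Con-3 replicate 2 and 3 without Ind-8 replicate 3, the 3 of B became 1 without tI-3 replicate 1, and the 7 of C became 4 without tI-3 replicate 2. Renewed quantile normalization gave 5 and 5 in B, and centring of chromosomes gave 2 and 4 in A and 3 and 1 in B. With the hybridization control covariate there were 1 and 3 in A, 1 and 1 in B, and 3 and 5 in C. In C the nuclear factor Nrf1 and the coactivator Ppargc1a thus moved in opposite directions, while the respiratory chain members had a median of 0.12.

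Upstream of the chain, the tricarboxylic acid cycle and pyruvate dehydrogenase had all 18 listed genes on the arrays. In A 2 were higher and 4 lower, in B 2 and 1, and in C 2 and 5 (medians -0.05, 0.14 and -0.14). As shares these are 11.1% and 22.2%, 11.1% and 5.56%, and 11.1% and 27.8%, beside 10.9% and 11.0%, 15.6% and 15.5%, and 10.2% and 15.1% of all probe sets. Pdha1, the alpha subunit of pyruvate dehydrogenase, read 10.49, 10.90 and 10.74 in Ind-8, 11.15, 11.20 and 11.21 in Con-3, and 10.23 and 10.07 in tI-3. The lines did not overlap, and Pdha1 fell by 0.47 in A (adjusted p = 0.0122) and by 1.04 ± 0.13 in C (adjusted p = 0.00031) under every alternative tried. The subunits of succinyl-CoA ligase differed, with Suclg2 higher in A (0.50, adjusted p = 0.00693) and Sucla2 lower in C (-0.61, adjusted p = 0.0011). Idh3a, of isocitrate dehydrogenase, fell by 0.42 in A (adjusted p = 0.0104). No left-out array ended these calls. The calls of B, Pdha1 (0.56) and Sucla2 (0.31) higher and Idh3a (-0.36) lower, all ended without tI-3 replicate 2 (adjusted p = 0.0795, 0.137 and 0.0664) and with the hybridization control covariate (0.192, 0.23 and 0.167), and those of Sucla2 and Idh3a also without Ind-8 replicate 1 (0.0509 and 0.086) or tI-3 replicate 1 (0.0908 and 0.16). Over all alternatives the adjusted p ran from 0.00382 to 0.192, 0.0155 to 0.23 and 0.00836 to 0.167. The Sucla2 call of B ended too after renewed quantile normalization (0.20, adjusted p = 0.131) and with chromosomes centred (0.0567). It also ended without Ind-8 replicate 2 (0.0864) and in the fit of the compared lines only (0.0508).

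The counts of this list moved with single arrays. Those of A were 1 and 2 without Ind-8 replicate 1, Ind-8 replicate 3, Con-3 replicate 2 or Con-3 replicate 3 and 1 and 4 without Con-3 replicate 1, and 1 and 3 without Ind-8 replicate 2 or either tI-3 array. Those of B were 0 and 0 without tI-3 replicate 2, 1 and 0 without Ind-8 replicate 1, 2 and 0 without tI-3 replicate 1, and 2 and 2 without Ind-8 replicate 3 or Con-3 replicate 1. Those of C were 2 and 2 without tI-3 replicate 2, 1 and 4 without tI-3 replicate 1, and 1 and 3 without Con-3 replicate 2. Renewed quantile normalization gave 1 and 4 in B and 3 and 3 in C, and centring of chromosomes 1 and 4 in A and 1 and 1 in B. The medians of A, B and C were -0.06, 0.05 and -0.02 after the former and -0.01, 0.08 and -0.03 after the latter. With the hybridization control covariate there were 1 and 2 in A, 0 and 0 in B, and 2 and 4 in C.

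The mitochondrial ribosome makes the subunits encoded by mitochondrial DNA. Of its 70 genes, 5 were higher and 16 lower in A (median -0.11), 22 and 3 in B (median 0.21), and 1 and 33 in C (median -0.30). As shares these are 7.14% and 22.9%, 31.4% and 4.29%, and 1.43% and 47.1%, beside 10.9% and 11.0%, 15.6% and 15.5%, and 10.2% and 15.1% of all probe sets. Mrpl32 read 9.94, 9.52 and 9.60 in Ind-8, 9.97, 10.00 and 10.10 in Con-3, and 8.99 and 8.75 in tI-3. It was lowest in tI-3 without overlap and fell by 1.15 ± 0.14 in C (adjusted p = 0.00027). Mrps7 fell by 0.64 in A (adjusted p = 0.00105) and by 0.94 in C (adjusted p = 0.00019), Mrpl12 fell by 0.89 in A (adjusted p = 0.00018), and in B Mrpl24 rose by 1.03 and Mrpl36 by 0.87 (adjusted p = 0.00022 and 0.00027). Mrps6 and Mrpl39, on chromosome 16, rose by 0.63 and 0.52 in A (adjusted p = 0.00519 and 0.00284). These calls held under every alternative tried. Mrpl4 (-0.41, adjusted p = 0.0366) and Mrps5 (-0.31, adjusted p = 0.0446) were called lower in B, ended under 6 and 9 alternatives, either tI-3 array left out among them, and had ranges of 0.00817 to 0.691 and 0.00717 to 0.421. Mrps21, called higher in C (0.32, adjusted p = 0.0232), was at 0.12 with chromosomes centred (adjusted p = 0.343) and ended under 6 alternatives (0.00455 to 0.343). The upper quartile of the arrays, lowest in tI-3 at 8.17 and 8.12, was not tested for its part in the B and C medians of these genes. After renewed quantile normalization the counts were 15 and 6 in B and 2 and 25 in C, with medians of 0.08 and -0.19. With the hybridization control covariate there were 3 and 10 in A, 5 and 0 in B, and 0 and 26 in C. Without tI-3 replicate 2 they were 10 and 0 in B and 0 and 15 in C, and without Ind-8 replicate 2 they were 3 and 12 in A. The 3 lower calls of B became 0 without Ind-8 replicate 1, Ind-8 replicate 2, Con-3 replicate 2 or tI-3 replicate 1 and 1 without Ind-8 replicate 3, and the 1 higher call of C became 0 without Con-3 replicate 1, Con-3 replicate 2 or either tI-3 array.

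Set side by side in C, the respiratory chain members (13 higher and 6 lower) and the genes of the mitochondrial ribosome (1 and 33) or the assembly factors (1 and 16) had medians of 0.12, -0.30 and -0.17. After renewed quantile normalization these medians were 0.21, -0.19 and -0.08. The difference between these lists was not tested.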

How the data were processed

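The authors ran RMA on the scanner files with a custom RefSeq chip description file (version 12) and deposited the values as log2, and these were used as they are. Tests did not include the 64 control probe sets. RNA had been extracted with Trizol and RNeasy and labelled as biotin cRNA. Transcripts were named from a RefSeq gene table of GRCm38.p6.

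Lines were compared with limma 3.58.1 in R 4.3.3, a moderated fit with 3 line means, and p was adjusted by Benjamini-Hochberg over all 22523 probe sets. The rank product test was re-implemented, with 100 permutations and a pfp under 0.05, and tested on simulated data. Tables and figures used Python 3.11.15, numpy 2.4.6, pandas 2.3.3 and matplotlib 3.10.9.

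Genes were named by a rule: the 6 largest called rises and falls of members in each comparison, tissue isoform pairs, the complex I core, all of complex II, central subunits of complexes III to V, the 2 largest called rises and falls of each further list, and all label checks and p53-linked genes. The further lists were chain parts outside the naming rule, assembly factors, biogenesis regulators, the tricarboxylic acid cycle with pyruvate dehydrogenase, the mitochondrial ribosome, mitochondrially encoded genes and cell type markers. Members and lists were chosen with earlier results of these data known. No test of a list as a whole was made.

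Alternatives changed the lines in the fit, the replicate term, the prior, the filter on dim or repeated probe sets, the scaling of the arrays, the minimum change and the arrays used. Centring of each chromosome was added after seeing the data. The study's other experiments were not analysed here.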

Additional observations from a re-analysis of the deposited data

How the results depend on the processing

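Respiratory chain members called higher and lower were 15 and 4 in A, 10 and 10 in B and 13 and 6 in C, and 30 members varied among the 3 lines. With a covariate for the hybridization control level, A higher fell to 7, B to 1 and 2, C higher to 7 and the members that vary to 18. A minimum log2 change of 0.5 left 3 and 0 in A, 2 and 6 in B, and 4 and 1 in C. Renewed quantile normalization gave B higher 5, and 21 and 2 in C. Centring each chromosome, chosen after seeing the data, gave A lower 1, B higher 5 and C lower 2. Leaving out 1 array gave 7 to 12 higher and 3 to 5 lower in A, 2 to 11 and 3 to 10 in B, 2 to 13 and 1 to 6 in C, and 18 to 26 members that vary. Where this left tI-3 with 1 array, that array was assumed to vary like those of the other lines. The rank product called 0 members in A, B and C where limma called 19, 20 and 19. Ndufa4l2 in B changed from -0.66 to 0.01 with the hybridization controls as a covariate (adjusted p = 0.99). In each case the cause was not tested. Of 1822 values of the 96 named results, 1643 kept their direction and call, 178 kept their direction only and 1 reversed. Of those, 109 lost calls came from leaving out 1 array (28 without tI-3 replicate 2), 32 from the hybridization control covariate, 17 from centring chromosomes and 9 from renewed quantile normalization. The alternative without Atp5s and Atp5sl was not run, as neither matched a probe set. RMA levels of dim members sit near the background of the arrays, which limits how small a difference can be read.

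With the replicate number as a term (replicate block), the counts were 12 and 5 in A, 10 and 9 in B and 15 and 4 in C, and 30 members varied. Deviations of arrays with the same number correlated at 0.29, 0.03 and 0.44 between Ind-8 and Con-3, at 0.02 and -0.28 between Ind-8 and tI-3, and at 0.25 and 0.03 between Con-3 and tI-3 (13602 probe sets). Ind-8 replicates 1 and 3 correlated best with the Con-3 array of their own number, and Ind-8 replicate 2 with Con-3 replicate 1 (0.13). Deviations of the 2 tI-3 arrays mirror each other, so their correlations cannot judge a pairing. Whether arrays of 1 number were handled together cannot be told from these values.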
